A study of Mus musculus with 20 samples.

Results

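A set of 10 genes was followed in mouse regulatory T cells (Tregs), the lymphocytes that hold immune responses in check, with and without the small GTPases Rheb and Rag: Akr1c18, Dscam, Sema6d, Il18r1, Gcnt1, Trpm6, Xdh, Fam110c, Rasgrp4 and Pdzk1ip1. They were found by symbol in the array annotation, and each of the 10 had 1 named probe set, out of 19505 genes measured. The genes were chosen by their measured signal in the Rheb experiment, where they differed between Rheb knockout and wild-type (WT) arrays in 1 or both activation states. Those differences are therefore given as a description, with no test. The rule names no change in the Rag experiment, whose arrays carry the tests. The choice was made with earlier results of these data known, so it may not be independent of the Rag arrays.

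Expression was measured on Clariom S arrays, 1 array per sample, in Tregs of C57BL/6 mice enriched with CD4 beads and sorted for CD4 and CD25. The Rheb experiment held stimulated and unstimulated Tregs with the genotype Rheb1/2 KO (Rheb KO below) and WT Tregs, with 3 arrays in each of the 4 groups. The Rag experiment held stimulated and unstimulated Tregs with the genotype RagAB KO (Rag KO below) and WT Tregs of its own, with 2 arrays in each of the 4 groups. Stimulation lasted 8 h in the Rag experiment. The sources used here do not give its agent, its length in the Rheb experiment, the age of the mice, or the Cre or other means of deletion. It is also not stated whether replicate arrays came from different mice, so every p-value reflects the spread between arrays, which may be technical.

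Rheb and the Rag GTPases act at the lysosome, where they switch on mTORC1, the kinase complex that drives growth and metabolism. Rag heterodimers bring mTORC1 to the lysosomal surface when amino acids are present, and GTP-bound Rheb activates it there. In Tregs mTORC1 is known to be needed for suppressive function. The 10 genes share no single pathway. Dscam, Sema6d and Il18r1 encode surface proteins, Akr1c18, Gcnt1 and Xdh enzymes, Trpm6 an ion channel, Rasgrp4 a Ras activator, and Fam110c and Pdzk1ip1 small proteins of the cytoskeleton and the membrane.

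Promoter windows, 250 bases before to 50 after an annotated start, were at hand from RefSeq (build GRCm38.p6) for 8 of the 10 genes, 13 windows in all. Those of 4 genes are shown because their genes gave the clearest patterns below: Akr1c18 and Dscam, which lay above WT in every knockout comparison, and Fam110c and Pdzk1ip1, which lay below WT without Rheb. Akr1c18 starts within chr13:4150597-4150896 (minus strand), Dscam within chr16:97170686-97170985 (minus strand), Fam110c within chr12:31073718-31074017 (plus strand) and Pdzk1ip1 within chr4:115088458-115088757 (plus strand). Capitals mark matches to the motifs searched, and each sequence runs 5′ to 3′ on the strand of its gene.
Akr1c18: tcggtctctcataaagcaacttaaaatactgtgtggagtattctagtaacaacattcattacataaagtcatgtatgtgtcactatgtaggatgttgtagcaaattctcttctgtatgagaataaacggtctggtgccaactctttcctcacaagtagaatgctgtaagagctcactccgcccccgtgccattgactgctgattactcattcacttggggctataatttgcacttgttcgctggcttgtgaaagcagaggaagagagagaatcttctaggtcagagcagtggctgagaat
Dscam: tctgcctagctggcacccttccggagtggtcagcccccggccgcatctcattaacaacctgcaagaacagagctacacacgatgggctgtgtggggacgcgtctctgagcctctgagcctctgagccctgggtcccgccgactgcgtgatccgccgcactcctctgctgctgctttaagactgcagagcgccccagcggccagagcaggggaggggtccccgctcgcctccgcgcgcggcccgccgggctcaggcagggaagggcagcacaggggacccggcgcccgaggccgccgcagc
Fam110c: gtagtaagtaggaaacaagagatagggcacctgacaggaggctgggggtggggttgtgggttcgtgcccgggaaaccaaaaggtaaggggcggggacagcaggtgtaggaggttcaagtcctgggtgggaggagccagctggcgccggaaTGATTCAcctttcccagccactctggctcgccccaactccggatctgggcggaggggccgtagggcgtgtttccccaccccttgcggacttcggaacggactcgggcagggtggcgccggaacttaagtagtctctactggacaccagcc
Pdzk1ip1: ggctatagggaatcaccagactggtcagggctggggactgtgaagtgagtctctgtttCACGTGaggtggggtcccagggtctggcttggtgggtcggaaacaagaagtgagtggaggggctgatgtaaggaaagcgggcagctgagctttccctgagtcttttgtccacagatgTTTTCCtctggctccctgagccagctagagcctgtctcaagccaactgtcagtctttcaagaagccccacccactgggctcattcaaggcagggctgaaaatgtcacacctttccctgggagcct

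The motifs, read on both strands, were a forkhead site (TGTTTAC), the E-box (CACGTG), the AP-1 site (TGANTCA), the core bound by NFAT (GGAAAA), the core of a cAMP response element (TGACGT) and the TATA box (TATAAA). The Fam110c window held an AP-1 match at -100 to -94 from the start, a motif in 7.81% of the 32851 promoter windows of the same length. The Pdzk1ip1 window held an E-box at -192 to -187, a motif in 7.15% of all windows, and an NFAT core at -75 to -70, a motif in 23.4%. Neither the Akr1c18 nor the Dscam window held these letters. Over the 13 windows, 4 held the NFAT core, 2 the E-box, 1 the AP-1 site, 1 the TATA box and 0 the forkhead site or the core of a cAMP response element, the last pair occurring in 3.65% and 7.51% of all windows. The other matches lay in single windows of Sema6d (E-box), of Il18r1 and Trpm6 (NFAT core each) and Gcnt1 (NFAT core and TATA box). GC content was 42.3% in the Akr1c18 window, 70.0% in that of Dscam, 62.3% in that of Fam110c and 55.7% in that of Pdzk1ip1, against a median of 52.7% over all windows. A match is a run of letters and not a measured binding site.

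Values below are log2 signals. Arrays of the Rheb experiment had medians of 7.67 to 7.77, and those of the Rag experiment 7.18 to 7.55, where an unstimulated WT array (number 2, 7.18) and an unstimulated Rag KO array (number 1, 7.29) were lowest. The 95th percentile of negative control probe sets lay at 9.43 to 10.21, with 2194 to 3548 genes per array above it. Akr1c18, Dscam, Sema6d, Gcnt1, Trpm6, Xdh and Fam110c stayed below that level in every array. Only Il18r1, Rasgrp4 and Pdzk1ip1 of the set rose above it in any array. In Rheb KO against WT Tregs, Rheb fell by 0.88 unstimulated (limma, adjusted p = 0.0413) and fell by 0.93 stimulated (adjusted p = 0.0278), while Rhebl1, the gene of Rheb2, had values of -0.38 and -0.76 and was not called (adjusted p = 0.522 and 0.119). Rhebl1 was dimmer than the median negative control in all 12 arrays of that experiment, WT included, so these values do not show whether the gene was lost. In Rag KO against WT Tregs, Rraga, the gene of RagA, fell by 2.43 unstimulated (adjusted p = 0.00266) and fell by 2.18 stimulated (adjusted p = 0.00448), while Rragb, the gene of RagB, had values of -0.08 and -0.22 (adjusted p = 0.973 and 0.955). Where a probe set of a targeted gene lies relative to the deleted part is not given. The T cell genes Cd3e, Cd4, Ctla4 and Ikzf2 lay at or above the 86.5th percentile in every array. Il2ra encodes the CD25 the cells were sorted for. It averaged 7.05 to 7.90 over the groups of the Rheb experiment and 7.62 to 9.17 over those of the Rag experiment. Its lowest percentile was 29.2, in an unstimulated Rheb KO array. Foxp3 was not analysed here. Of 11 measured T cell and Treg genes, 1 was higher on average in unstimulated and 7 in stimulated Rag KO than in WT arrays. Median differences were -0.28 and 0.22. In Rheb KO against WT arrays 3 were higher unstimulated and 1 stimulated, with median differences of -0.14 and -0.11. None was called in these comparisons. Mean signal of 8 neutrophil genes was 7.27 and 9.27 in unstimulated Rag KO arrays, against 7.69 and 6.35 in unstimulated WT arrays, and 6.92 and 9.02 in stimulated Rag KO arrays, against 7.23 and 6.73 in stimulated WT arrays. It was thus highest in both Rag KO arrays numbered 2, in cells sorted for CD4 and CD25. Whether neutrophils passed the sort was not tested. Values without those arrays stand below beside the results they move. In the Rheb experiment the same mean lay between 6.54 and 6.81. For 6 arrays of the Rheb experiment the field for treatment names the other state than the title, and titles were used.

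**Figure D1:**
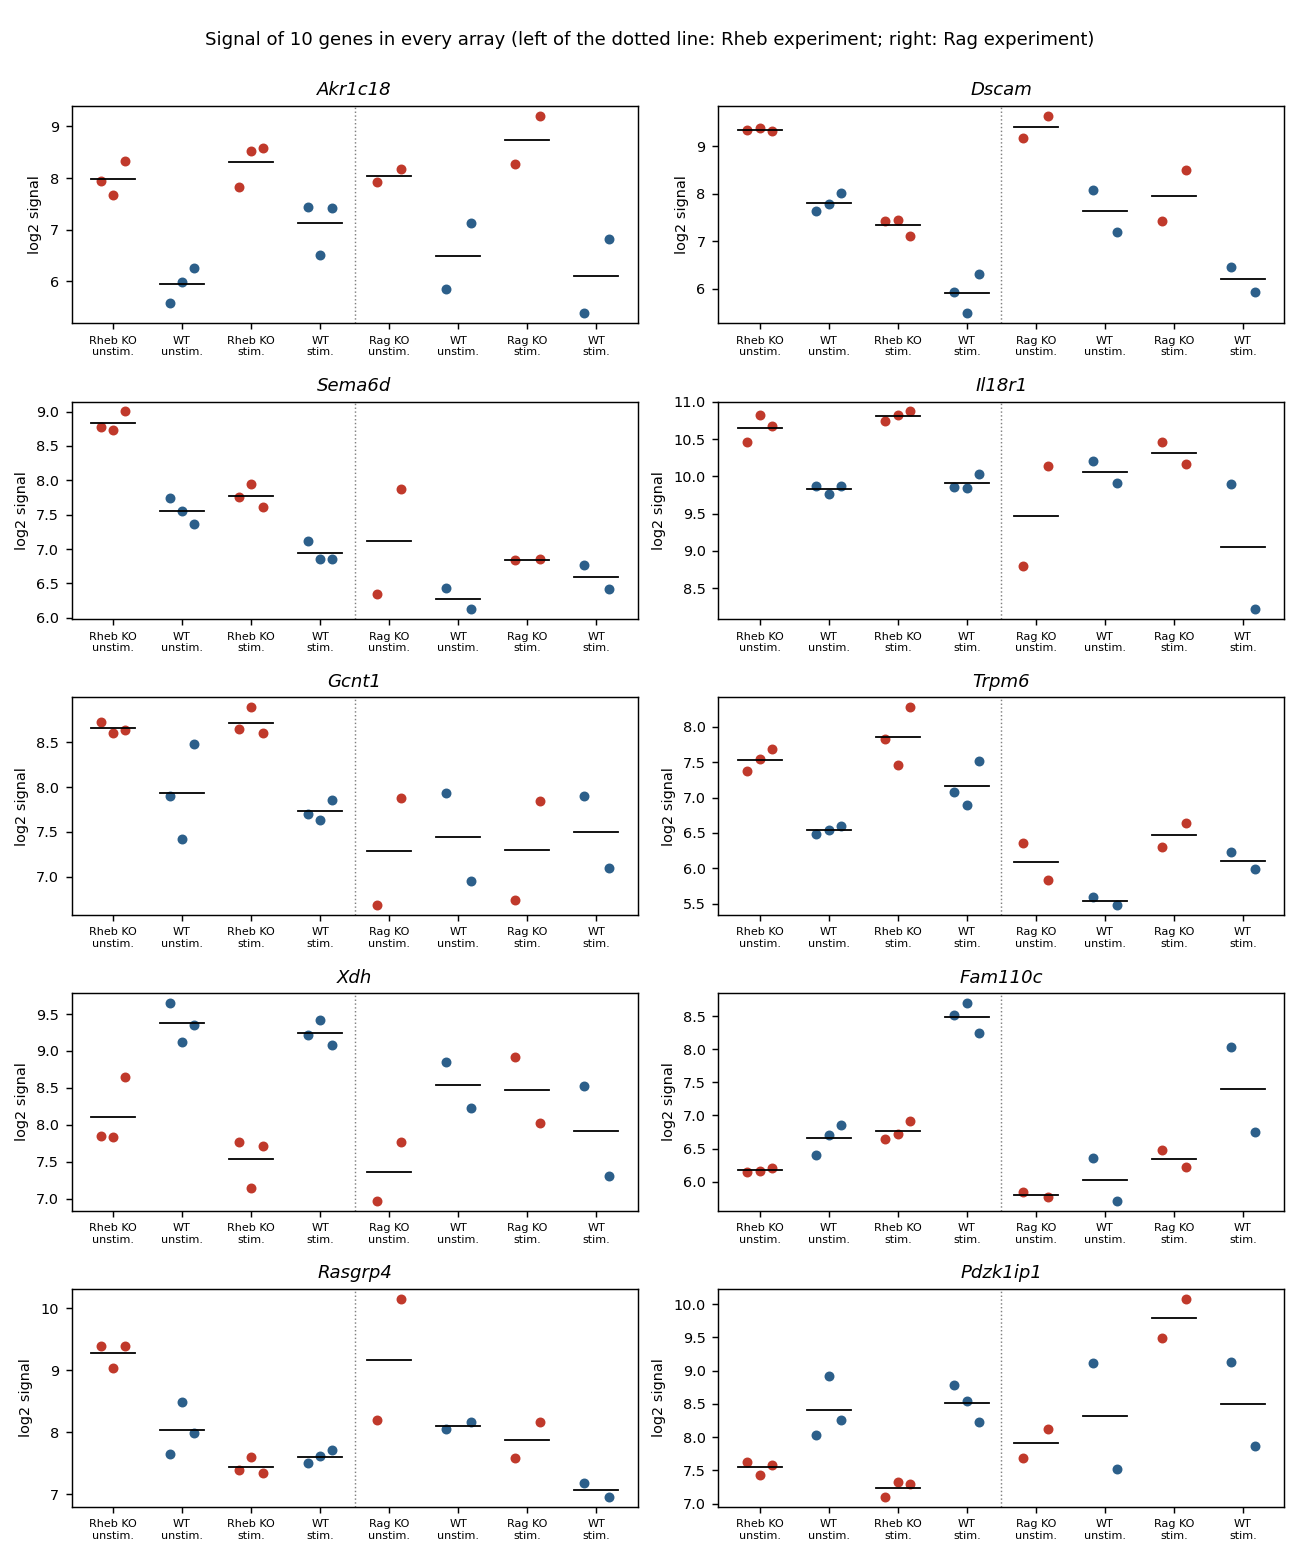
Signal of each of the 10 genes in every array, on a log2 scale that differs between panels. Points are single arrays, red for knockout and blue for WT, black lines are group means, and the dotted line parts the Rheb from the Rag experiment. For Akr1c18 and Dscam every red point lies above the blue points of its own comparison in both experiments.

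Dscam encodes an adhesion molecule of the immunoglobulin superfamily, known from neurons, where it lets neurites of the same cell repel and serves as a netrin receptor. Unstimulated Rheb KO arrays read 9.35, 9.39 and 9.32, against 7.63, 7.78 and 8.01 in WT arrays. Stimulated Rheb KO arrays read 7.43, 7.45 and 7.11, against 5.92, 5.48 and 6.30 in WT arrays. The 3 unstimulated Rheb KO arrays lay closer together than any other group of this gene in the Rheb experiment, and no knockout array reached down to a WT array of its state. The difference was 2.92-fold (1.55 ± 0.17, SE) unstimulated and 2.70-fold (1.43 ± 0.17) stimulated. All 3 stimulated WT arrays of the Rheb experiment were dimmer than the median of their negative control probe sets, so the stimulated fold is set against a level near background. Dscam also lay below the 95th percentile of those probe sets in every array of both experiments, knockout arrays included. In the Rag experiment, unstimulated Rag KO arrays read 9.17 and 9.65, against 8.07 and 7.19 in WT arrays. Stimulated Rag KO arrays read 7.42 and 8.51, against 6.45 and 5.94 in WT arrays. Again the groups did not overlap in either state. The Rag KO effect was 1.78 ± 0.37 unstimulated (limma, adjusted p = 0.172) and 1.77 ± 0.37 stimulated (adjusted p = 0.137), neither past the threshold of 0.05. The unstimulated effect was 1.54 without unstimulated Rag KO array 2. The stimulated effect was called without unstimulated Rag KO array 1 or 2, neither of which is in that comparison. Its value stayed at 1.77 and only the estimate of spread changed. Both omissions take the same deviations out of that estimate, so they are 1 result. A fit without 1 array, here and below, leaves a lone array in its group. Its spread is taken from the other groups and from a spread shared across genes. The effect averaged over both states, a contrast added after the data were seen, was 1.77 ± 0.26 (adjusted p = 0.0107) and passed the threshold. This fit takes the states as independent, which may not hold. Arrays of 1 genotype that share a number deviated together across states (r = 0.17 in Rag KO and 0.23 in WT, across genes). Unstimulated Rag KO array 1 and stimulated WT array 2, of unlike number, reached r = 0.43, so these values do not settle a shared source. With both states averaged per genotype and number first, 2 against 2, the same effect was not called (adjusted p = 0.502). The call was also lost without unstimulated WT array 2 (adjusted p = 0.145) and without stimulated WT array 2 (adjusted p = 0.0813). Without the Rag KO arrays numbered 2 the averaged effect was 1.38. Because these are bulk samples, fewer cells of a kind and less RNA per cell cannot be told apart, here or below.

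Mean Dscam signal was lower in stimulated than in unstimulated Tregs of every genotype. The difference between stimulated and unstimulated arrays was -2.02 in Rheb KO and -1.91 in WT arrays of the Rheb experiment. In the Rag experiment it was -1.45 ± 0.37 in Rag KO arrays (adjusted p = 0.0816) and -1.44 ± 0.37 in WT arrays (adjusted p = 0.101), with no overlap between states. The change of this response by Rag loss was -0.01 ± 0.53 (adjusted p = 0.996).

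Sema6d encodes a transmembrane semaphorin, a ligand of plexin-A1 that is known to act late in T cell activation. Signal was 8.77, 8.73 and 9.0 in unstimulated Rheb KO arrays, against 7.75, 7.55 and 7.36 in WT arrays. After stimulation it was 7.76, 7.94 and 7.62 in Rheb KO arrays, against 7.12, 6.86 and 6.86 in WT arrays. Knockout arrays lay above WT arrays in both states, by 2.43-fold (1.28 ± 0.13) unstimulated and 1.77-fold (0.83 ± 0.13) stimulated. Of the 3 stimulated WT arrays, 2 were dimmer than the median negative control, so the stimulated fold is set against a level near background. In the Rag experiment, unstimulated Rag KO arrays read 6.35 and 7.88, against 6.43 and 6.13 in WT arrays, and stimulated Rag KO arrays 6.84 and 6.86, against 6.76 and 6.41 in WT arrays. Only unstimulated Rag KO array 2 stood clear of the rest of the Rag experiment, and without it the unstimulated effect of 0.84 ± 0.38 (adjusted p = 0.742) was 0.08 (adjusted p = 0.951). Without unstimulated Rag KO array 1 the effect rested on the outlying array alone, with its spread taken from the other groups, and was 1.60 and called (adjusted p = 0.0399), as was the average over both states (0.93, adjusted p = 0.0226). Stimulated, the effect was 0.26 ± 0.38 (adjusted p = 0.955).

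Il18r1 encodes the chain of the interleukin-18 receptor that binds the cytokine. For Il18r1, unstimulated Rheb KO arrays read 10.46, 10.83 and 10.68, against 9.87, 9.76 and 9.87 in WT arrays. Once stimulated, Rheb KO arrays read 10.75, 10.82 and 10.87, against 9.85, 9.85 and 10.03 in WT arrays. Knockout arrays lay above WT arrays in both states, and stimulated arrays differed from unstimulated ones by 0.16 in Rheb KO and 0.08 in WT arrays. The knockout difference was 1.77-fold (0.82 ± 0.11) unstimulated and 1.87-fold (0.90 ± 0.11) stimulated. Without Rag, unstimulated arrays read 8.80 and 10.15, against 10.20 and 9.92 in WT arrays. Once stimulated, Rag KO arrays read 10.46 and 10.17, against 9.89 and 8.22 in WT arrays. The unstimulated groups overlapped and the stimulated groups did not. The effect was -0.59 ± 0.48 unstimulated (adjusted p = 0.867) and 1.26 ± 0.48 stimulated (adjusted p = 0.834). Each value leaned on 1 low array: without unstimulated Rag KO array 1 the first was 0.08, and without stimulated WT array 2 the other was 0.42. The change of the response to stimulation by Rag loss was 1.85 ± 0.68 and missed the threshold (adjusted p = 0.728, unadjusted p = 0.0170). Without unstimulated Rag KO array 2 it was 2.52 (adjusted p = 0.0293), and the response of Rag KO arrays was 1.51 (adjusted p = 0.0355).

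Akr1c18 encodes a hydroxysteroid dehydrogenase that inactivates progesterone. Unstimulated Rheb KO arrays read 7.95, 7.67 and 8.32, against 5.58, 5.99 and 6.26 in WT arrays. Stimulated Rheb KO arrays read 7.82, 8.52 and 8.59, against 7.44, 6.52 and 7.43 in WT arrays. Knockout arrays lay above WT arrays in both states, by 4.10-fold (2.04 ± 0.28) unstimulated and by 2.26-fold (1.18 ± 0.28) stimulated. All 3 unstimulated WT arrays of the Rheb experiment were dimmer than the middle of their own negative control probe sets, so the unstimulated fold is set against a level near background. Unstimulated Rag KO arrays read 7.93 and 8.17, against 5.84 and 7.13 in WT arrays. Stimulated Rag KO arrays read 8.27 and 9.21, against 5.39 and 6.82 in WT arrays. The knockout arrays again lay above the WT arrays in both states, and the WT arrays were far apart. The Rag KO effect was 1.56 ± 0.47 unstimulated (adjusted p = 0.547) and 2.64 ± 0.47 stimulated (adjusted p = 0.0604). Without unstimulated Rag KO array 1 or 2, neither of them in that comparison, the stimulated effect was called. Its value stayed and only the estimate of spread changed, equally for both omissions. Averaged over both states the Rag KO effect was 2.10 ± 0.33 (adjusted p = 0.0139), in the contrast added after the data were seen. With both states averaged per genotype and number first it was not called (adjusted p = 0.603). It was also lost without unstimulated WT array 1 (adjusted p = 0.122) or 2 (0.0789), stimulated WT array 1 (0.0555) or stimulated Rag KO array 2 (0.0579), and with a trended and robust variance prior (0.460). Without the Rag KO arrays numbered 2 it was 1.80.

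With stimulation Akr1c18 stood higher by 0.33 in Rheb KO arrays, which overlapped between states, and by 1.19 in WT arrays of the Rheb experiment, which did not. In the Rag experiment the response was 0.69 ± 0.47 in Rag KO arrays (adjusted p = 0.625) and -0.39 ± 0.47 in WT arrays (adjusted p = 0.675), so the WT arrays of both experiments did not share a sign. In the Rheb experiment stimulation lasted for a time that is not given.

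Gcnt1 encodes the enzyme that starts core-2 branches on O-glycans, which T cells need for ligands of P-selectin. Signal was 8.73, 8.60 and 8.64 in unstimulated Rheb KO arrays, against 7.90, 7.42 and 8.49 in WT arrays. After stimulation it was 8.64, 8.89 and 8.60 in Rheb KO arrays, against 7.70, 7.64 and 7.86 in WT arrays. Unstimulated WT array 3 nearly reached the knockout arrays, and the stimulated groups stood well apart. The difference was 1.65-fold (0.72 ± 0.20) unstimulated and 1.97-fold (0.98 ± 0.20) stimulated. In the Rag experiment, unstimulated Rag KO arrays read 6.69 and 7.88, against 7.93 and 6.96 in WT arrays, and stimulated Rag KO arrays 6.74 and 7.85, against 7.90 and 7.10 in WT arrays. Groups overlapped in both states, with effects of -0.16 ± 0.46 (adjusted p = 0.962) and -0.20 ± 0.46 (adjusted p = 0.969).

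Xdh encodes xanthine dehydrogenase, which carries out the last steps of purine breakdown to uric acid. For Xdh, unstimulated Rheb KO arrays read 7.85, 7.84 and 8.65, against 9.65, 9.12 and 9.36 in WT arrays. Once stimulated, Rheb KO arrays read 7.76, 7.14 and 7.71, against 9.22, 9.42 and 9.08 in WT arrays. Every knockout array lay below every WT array of the Rheb experiment, by 2.40-fold (-1.26 ± 0.22) unstimulated and 3.25-fold (-1.70 ± 0.22) stimulated. Without Rag, unstimulated arrays read 6.97 and 7.76, against 8.85 and 8.23 in WT arrays. Once stimulated, Rag KO arrays read 8.92 and 8.02, against 8.53 and 7.30 in WT arrays. Unstimulated Rag KO arrays were thus below WT arrays, and the stimulated groups overlapped. The effect was -1.17 ± 0.42 unstimulated (adjusted p = 0.638) and 0.55 ± 0.42 stimulated (adjusted p = 0.947). For the response to stimulation, the change by Rag loss was 1.73 ± 0.59 and missed the threshold (adjusted p = 0.728, unadjusted p = 0.0115).

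Trpm6 encodes a magnesium-permeable channel with a kinase domain, known from kidney and gut. Unstimulated Rheb KO arrays read 7.37, 7.54 and 7.69, against 6.49, 6.54 and 6.60 in WT arrays. Stimulated Rheb KO arrays read 7.82, 7.46 and 8.27, against 7.08, 6.90 and 7.52 in WT arrays. Unstimulated groups were apart, and stimulated WT array 3 reached past stimulated Rheb KO array 2. The difference was 1.99-fold (0.99 ± 0.19) unstimulated and 1.61-fold (0.69 ± 0.19) stimulated. Unstimulated Rag KO arrays read 6.35 and 5.83, against 5.59 and 5.48 in WT arrays, and stimulated Rag KO arrays 6.30 and 6.64, against 6.23 and 6.00 in WT arrays. Rag KO arrays lay above WT arrays by small amounts, 0.56 ± 0.25 unstimulated (adjusted p = 0.742) and 0.36 ± 0.25 stimulated (adjusted p = 0.947). In 10 of the 20 arrays Trpm6 was dimmer than the median negative control.

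Rasgrp4 encodes a guanine nucleotide exchange factor that activates Ras and is known from mast cells and other myeloid cells. Signal was 9.39, 9.04 and 9.39 in unstimulated Rheb KO arrays, against 7.65, 8.49 and 7.99 in WT arrays. After stimulation it was 7.39, 7.60 and 7.34 in Rheb KO arrays, against 7.50, 7.62 and 7.71 in WT arrays. Its difference was seen in the unstimulated state, 2.35-fold (1.23 ± 0.18), while the stimulated groups overlapped (-0.16 ± 0.18). In the Rag experiment, unstimulated Rag KO arrays read 8.19 and 10.15, against 8.05 and 8.16 in WT arrays. After stimulation, Rag KO arrays read 7.58 and 8.17, against 7.18 and 6.96 in WT arrays. The reading of 10.15 belongs to unstimulated Rag KO array 2, which also had the highest neutrophil mean. The effect was 1.06 ± 0.46 unstimulated (adjusted p = 0.719) and 0.80 ± 0.46 stimulated (adjusted p = 0.947). Without the Rag KO arrays numbered 2 these were 0.08 and 0.51. Without unstimulated Rag KO array 1 the unstimulated effect was 2.04 and called (adjusted p = 0.00800), as was the average over both states (1.42, adjusted p = 0.000832). Whether neutrophil RNA has a part in these values was not tested.

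**Figure D2:**
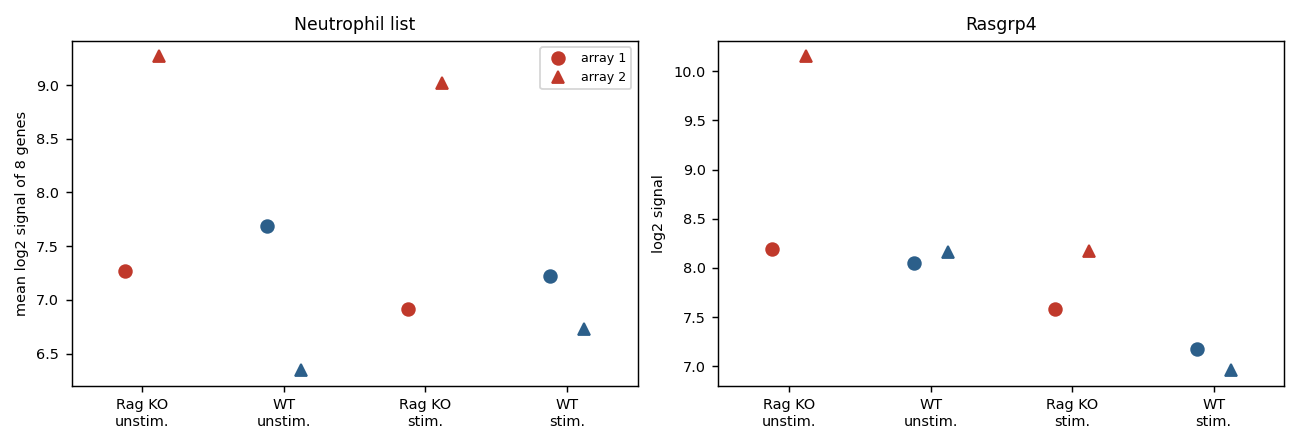
Mean signal of 8 neutrophil genes (left) and signal of Rasgrp4 (right) in the 8 arrays of the Rag experiment, on log2 axes that do not start at 0. Circles are arrays numbered 1 and triangles arrays numbered 2, red for Rag KO and blue for WT. Unstimulated Rag KO array 2 is highest in both panels, at 9.27 and 10.15.

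Markers of other cells were read beside Rasgrp4, since several kinds could be present after the sort. Of 10 genes of mast cells and basophils, 4 (Fcer1a, Ms4a2, Tpsab1 and Cma1) were dimmer in every array than the median negative control. The mean of this list was 6.67 to 6.79 in unstimulated Rheb KO arrays and 6.55 to 6.72 in WT arrays, and no member was called in either knockout. In unstimulated Rag KO arrays the mean was 6.70 to 6.96, against 6.11 to 6.72 in WT arrays, and all 10 genes were above 0, with a median of 0.27. Of 10 macrophage genes, all 10 were above 0 in unstimulated Rheb KO against WT arrays, with a median of 0.41, and 2 were called. Their mean was 7.75 to 7.85 in unstimulated Rheb KO arrays, against 7.32 to 7.40 in WT arrays, and 6.73 to 6.77 in stimulated Rheb KO arrays, against 6.69 to 6.93 in WT arrays. The list was thus apart in the state in which Rasgrp4 was apart, and its part in the result was not tested. Of 8 neutrophil genes, 8 were above 0 in unstimulated and 7 in stimulated Rag KO against WT arrays, with medians of 1.28 and 0.89, and none was called. Of 12 dendritic cell genes, 10 were above 0 in unstimulated and 11 in stimulated Rheb KO against WT arrays, with 2 and 1 called higher. In unstimulated Rag KO against WT arrays 9 of 10 macrophage genes and 10 of 12 dendritic cell genes were above 0, with medians of 0.24 each and none called. The mean of the dendritic cell genes was 8.38 to 8.46 in unstimulated Rheb KO arrays, against 8.07 to 8.20 in WT arrays. Stimulated, it was 7.90 to 7.99, against 7.69 to 7.89. NK cell means were 7.26 to 7.51 against 6.96 to 7.23 unstimulated, and 6.93 to 7.26 against 6.63 to 6.80 stimulated. Both lists were thus apart in both states. CD8 T cell means were 7.94 to 8.20 in stimulated Rheb KO arrays, against 8.43 to 8.55 in WT arrays, and overlapped unstimulated. B cell means overlapped in both states. Of 9 NK cell genes, 7 were above 0 in unstimulated and 8 in stimulated Rheb KO against WT arrays, with 1 called higher in each. In Rag KO against WT arrays 6 were above 0 in each state, and none was called. The part of these cells in the values of the 10 genes was not tested.

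Fam110c encodes a protein that, in human cells, sits at the spindle poles and centrosome. For Fam110c, unstimulated Rheb KO arrays read 6.15, 6.16 and 6.21, against 6.40, 6.70 and 6.86 in WT arrays. Once stimulated, Rheb KO arrays read 6.64, 6.72 and 6.91, against 8.52, 8.70 and 8.25 in WT arrays. Only the stimulated WT arrays stood high, and no array of the other 3 groups of that experiment exceeded 6.91. The knockout difference was 1.39-fold lower unstimulated (-0.48 ± 0.14) and 3.31-fold lower stimulated (-1.73 ± 0.14). All 3 stimulated Rheb KO arrays were dimmer than the median negative control, so this fold is measured against a level near background. Stimulated arrays exceeded unstimulated arrays by 0.59 in Rheb KO and by 1.83 in WT. Without Rag, unstimulated arrays read 5.84 and 5.77, against 6.35 and 5.71 in WT arrays. Once stimulated, Rag KO arrays read 6.48 and 6.21, against 8.03 and 6.76 in WT arrays. The stimulated WT arrays of the Rag experiment were again the high ones. The effect was -0.23 ± 0.36 unstimulated (adjusted p = 0.932) and -1.04 ± 0.36 stimulated (adjusted p = 0.653), and the stimulated value was -0.41 without stimulated WT array 1 and -1.68 without stimulated WT array 2. The response to stimulation was 0.54 ± 0.36 in Rag KO arrays (adjusted p = 0.594) and 1.36 ± 0.36 in WT arrays (adjusted p = 0.103), and the change of the response by Rag loss was -0.82 ± 0.50 (adjusted p = 0.728). In 15 of the 20 arrays Fam110c was dimmer than the median negative control, that is in all but the stimulated WT arrays. Its unstimulated knockout differences and its knockout responses to stimulation therefore compare levels near background.

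Pdzk1ip1 encodes a small membrane protein that binds the scaffold PDZK1 in kidney epithelium. Unstimulated Rheb KO arrays read 7.63, 7.43 and 7.58, against 8.04, 8.91 and 8.26 in WT arrays. Stimulated Rheb KO arrays read 7.10, 7.32 and 7.29, against 8.78, 8.54 and 8.22 in WT arrays. Knockout arrays lay below WT arrays in both states, by 1.81-fold (-0.86 ± 0.19) unstimulated and 2.42-fold (-1.28 ± 0.19) stimulated. Unstimulated Rag KO arrays read 7.68 and 8.13, against 9.12 and 7.52 in WT arrays. Stimulated Rag KO arrays read 9.50 and 10.08, against 9.12 and 7.87 in WT arrays. Without Rag the stimulated arrays were the highest of the 8, whereas without Rheb the stimulated arrays were the lowest of the 12. The Rag KO effect was -0.42 ± 0.47 unstimulated (adjusted p = 0.911) and 1.29 ± 0.47 stimulated (adjusted p = 0.777). The stimulated value was 1.91 without stimulated WT array 1 and 0.66 without stimulated WT array 2. The response to stimulation was 1.88 ± 0.47 in Rag KO arrays (adjusted p = 0.0723) and 0.18 ± 0.47 in WT arrays (adjusted p = 0.855), against differences of -0.31 in Rheb KO and 0.11 in WT arrays of the Rheb experiment. The change of this response by Rag loss was 1.70 ± 0.67 and missed the threshold (adjusted p = 0.728, unadjusted p = 0.0240). Without unstimulated Rag KO array 2 the response of Rag KO arrays was 2.10 (adjusted p = 0.0122).

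**Figure D3:**
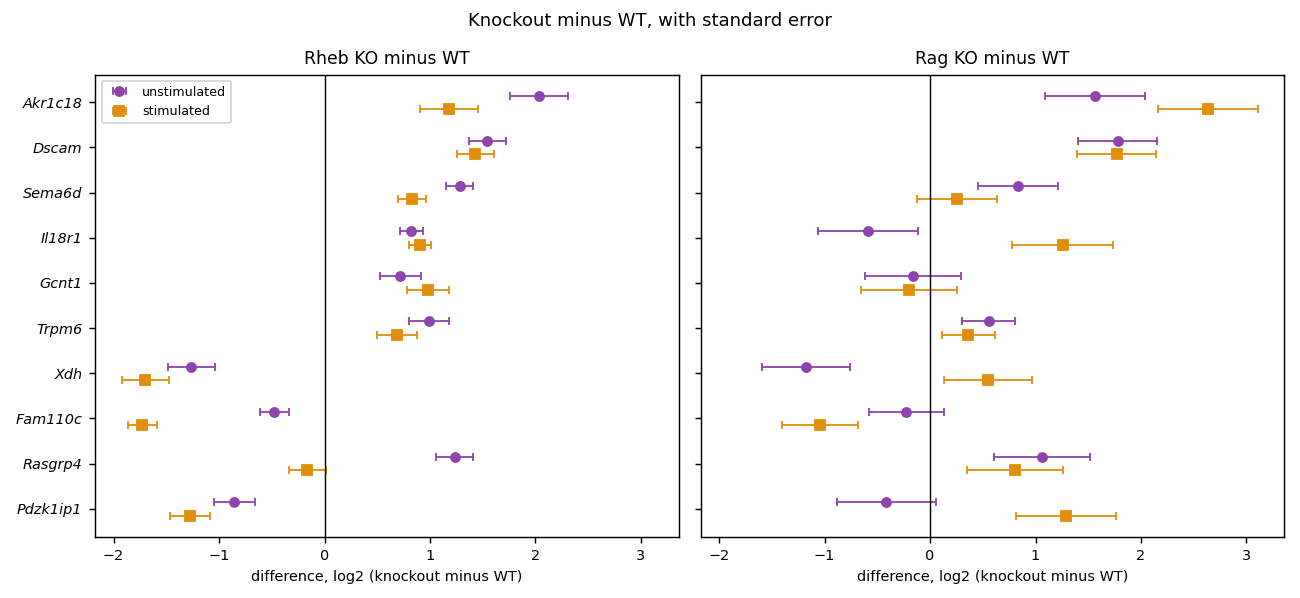
Difference between knockout and WT arrays of each gene (log2), for Rheb KO on the left and Rag KO on the right, with purple circles for unstimulated and orange squares for stimulated cells. Bars are standard errors of the fit. Dscam lies between 1.43 and 1.78 in all 4 comparisons, and Pdzk1ip1 in stimulated cells lies at -1.28 without Rheb and 1.29 without Rag.

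Counted over the 10 genes, all 10 had unstimulated Rheb KO arrays apart from WT arrays, 7 above and 3 below, where 7.62% of all genes lay above and 7.08% below. Stimulated, 8 of 10 were apart, 5 above and 3 below, where 6.75% of all genes lay above and 8.8% below. These counts restate how the genes were picked. Between Rag KO and WT Tregs, 0 of 10 genes were called in either state by limma, where 0.113% of all genes were called unstimulated (22 of 19505) and 0.103% stimulated (20 of 19505). At an unadjusted p under 0.05 there were 6 of 10 unstimulated, against 6.66% of all genes, and 5 of 10 stimulated, against 5.07%. With these arrays' spread, the fit found 36.3% of simulated 2-fold changes in the unstimulated Rag comparison, and 9.36% of the genes it called were false, above the nominal share. Rag KO arrays lay wholly above WT arrays for 4 genes and below for 1 unstimulated, where 15.9% of all genes lay above and 12.5% below. Stimulated they lay above for 7 and below for 1, where 18.1% lay above and 26.2% below. The sign of the Rag KO effect was that of the Rheb KO difference for 8 of 10 genes unstimulated, against 60.1% of all genes, and for 6 of 10 stimulated, against 53.0%. The experiments share no arrays, and Il18r1 and Gcnt1 (unstimulated) and Gcnt1, Xdh, Rasgrp4 and Pdzk1ip1 (stimulated) differed in sign. In the average over both states 2 of 10 genes were called, Akr1c18 and Dscam, where 0.328% of all genes were called (64 of 19505). With both states averaged per genotype and number first, 0 of 10 genes and 5 of 19505 were called.

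Leaving out both Rag KO arrays numbered 2 kept 1 Rag KO array in each state, whose spread was not measured. The fit took it from the WT arrays and from a spread shared across genes. Standard errors of the unstimulated and stimulated effects were 0.37 to 0.40 for all 10 genes. The Akr1c18 WT arrays alone had SDs of 0.91 unstimulated and 1.01 stimulated, so effect sizes are given here without calls. Unstimulated, the Rag KO effect was then 1.44 for Akr1c18, 1.54 for Dscam and -1.57 for Xdh. Stimulated, it was 2.16 for Akr1c18. Rag KO effects of the other genes lay between -1.26 (Il18r1) and 0.82 (Trpm6) unstimulated, and between -0.91 (Fam110c) and 1.40 (Il18r1) stimulated. The change of the response to stimulation by Rag loss was 2.66 for Il18r1 and 2.57 for Xdh.

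Stimulation was tested in the Rag experiment, where the median of all genes was itself shifted by 0.09 in Rag KO and 0.21 in WT arrays. There 0 of 10 genes were called in Rag KO arrays, where 1.32% of all genes were called (258), and 0 in WT arrays, where 1% were called (195). Stimulated Rag KO arrays lay wholly above unstimulated ones for 5 genes and below for 2, where 31.9% of all genes lay above and 13.8% below. In WT arrays 2 genes lay above and 3 below, where 37.3% of all genes lay above and 10.1% below. In the Rheb experiment stimulated arrays lay above unstimulated ones for 1 gene and below for 5 in Rheb KO, where 13.5% of all genes lay above and 14.4% below, and above for 3 and below for 2 in WT, where 12.9% lay above and 11.5% below. Without unstimulated Rag KO array 1 or 2 the WT responses of Dscam (-1.44), Fam110c (1.36) and Rasgrp4 (-1.04) were called. These responses hold no Rag KO array, so their values stayed and only the estimate of spread changed, equally for both omissions. The Rag KO response of Rasgrp4 was called without unstimulated Rag KO array 1 (-2.28, adjusted p = 0.000968), and that of Xdh without unstimulated Rag KO array 2 (1.5, adjusted p = 0.0329). At an unadjusted p under 0.05 there were 4 genes in Rag KO arrays (Dscam, Xdh, Rasgrp4 and Pdzk1ip1), against 14.4% of all genes, and 4 in WT arrays (Dscam, Trpm6, Fam110c and Rasgrp4), against 15%. The change of the response by Rag loss was called by limma for 0 of 19505 genes, 0%, and Xdh, Il18r1 and Pdzk1ip1 were the genes of the 10 with an unadjusted p under 0.05, a level that 6.16% of all genes reached. Rasgrp4 and Dscam stood lower in stimulated cells of all 4 genotypes, Rasgrp4 with values of -1.83 in Rheb KO and -0.43 in WT arrays of the Rheb experiment, which overlapped between states in WT only, and of -1.30 ± 0.46 in Rag KO (adjusted p = 0.191) and -1.04 ± 0.46 in WT arrays of the Rag experiment (adjusted p = 0.317). Sema6d stood lower in stimulated cells of the Rheb experiment, with values of -1.06 in Rheb KO and -0.61 in WT arrays, and had values of -0.27 ± 0.38 in Rag KO (adjusted p = 0.912) and 0.31 ± 0.38 in WT arrays of the Rag experiment (adjusted p = 0.675). Xdh had a value of 1.10 ± 0.42 in Rag KO (adjusted p = 0.225), where Rheb KO arrays differed by -0.57.

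**Figure D4:**
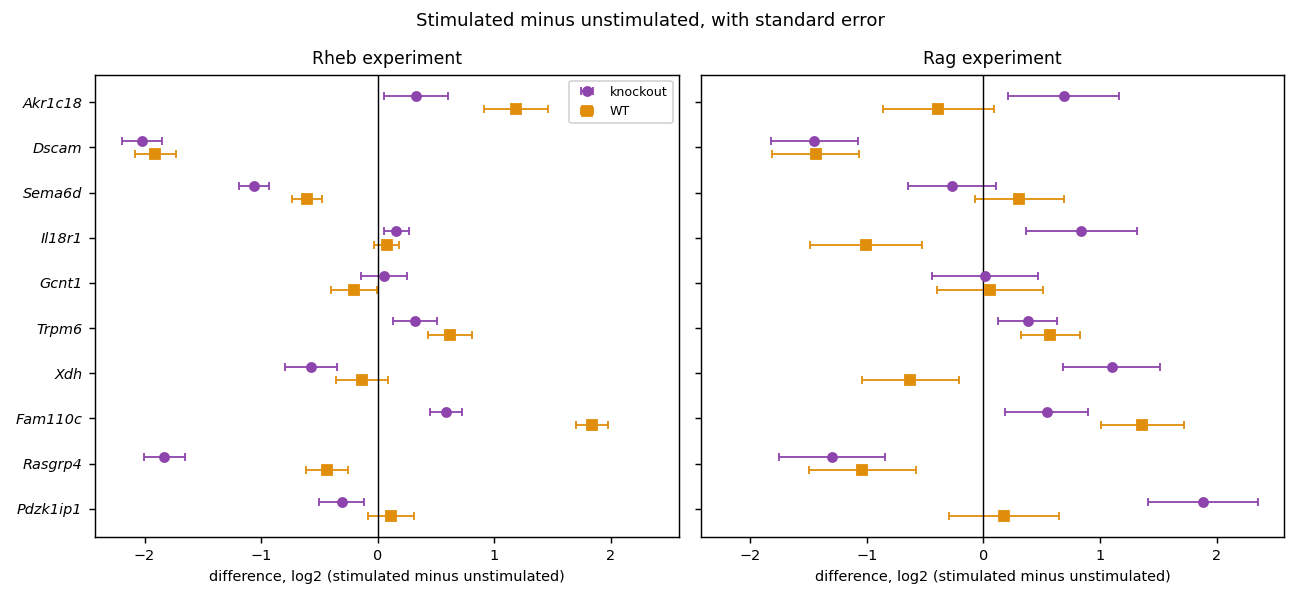
Difference between stimulated and unstimulated arrays of each gene (log2), in the Rheb experiment on the left and the Rag experiment on the right, with purple circles for knockout and orange squares for WT cells. Bars are standard errors of the fit. Dscam lies between -2.02 and -1.44 in all 4 genotypes, and Fam110c lies at 0.59 and 0.54 in knockout cells, against 1.83 and 1.36 in WT cells. Every knockout array of Fam110c was dimmer than the median negative control.

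Relatives and direct partners of the 10 genes, 118 measured of 128 listed, were read in the same fits. In Rheb KO against WT Tregs 1 of 118 was called unstimulated, where 0.508% of all genes were called, and 0 stimulated, where 0.543% were called. The median of the relatives was 0.02 unstimulated and -0.00 stimulated, and that of all genes 0.02 and -0.01. In Rag KO against WT Tregs 2 of 118 were called unstimulated and 1 of 118 stimulated, where 0.113% and 0.103% of all genes were called, and the medians were -0.06 and -0.03. The relative called without Rheb was Nt5e, the gene of CD73, a surface enzyme that makes adenosine, listed with Xdh. It averaged 9.95 ± 0.07 in unstimulated Rheb KO arrays and 10.66 ± 0.13 in WT arrays (SD, n = 3 each), and it fell by 0.71 (adjusted p = 0.00693). Stimulated, the difference was -0.32 (adjusted p = 0.242). In Rag KO Tregs Nt5e fell to 8.39 ± 0.16 unstimulated, against 10.19 ± 0.26 in WT Tregs, and to 8.84 ± 0.12 stimulated, against 10.40 ± 0.11 in WT Tregs (SD, n = 2 each), with adjusted p = 0.0139 and 0.0287. Of the other purine enzymes named, Pnp and Ada had values from -0.41 to -0.06 over the 4 knockout comparisons, and Ampd3 from -0.40 to 0.44, and none was called.

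Among the TRPM channels, Trpm1 rose in unstimulated Rag KO Tregs to 10.54 ± 0.62, against 8.40 ± 0.42 in WT Tregs (SD, n = 2 each), by 2.13 ± 0.31 (adjusted p = 0.0230). Trpm7, the channel with which Trpm6 pairs, had values from -0.05 to 0.69 over the 4 knockout comparisons and was not called. Il18rap, the signalling chain that pairs with Il18r1, averaged 8.00 in Rheb KO and 7.42 in WT arrays unstimulated, and 8.00 in Rheb KO and 7.45 in WT arrays stimulated. Its differences of 0.58 and 0.55 missed the threshold (adjusted p = 0.160 and 0.212), as did its Rag KO effects of -0.04 unstimulated (adjusted p = 0.985) and 1.11 stimulated (adjusted p = 0.306). Gcnt2, a related branching enzyme, had values from 0.08 to 0.65, and Gcnt4, another core-2 enzyme, from -0.19 to 0.33. Rasgrp1, the main Ras activator downstream of the T cell receptor, had values from -0.02 to 0.67, and Rasgrp2 from -0.32 to 0.09. Plxna1, a receptor of Sema6d, had values from -0.33 to 0.06, and Pdzk1, the scaffold of Pdzk1ip1, from -0.45 to 0.02. None of these 6 was called in a knockout comparison.

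Stimulation moved a few relatives past the threshold in the Rag experiment, 2 of 118 in Rag KO arrays, where 1.32% of all genes were called, and 2 of 118 in WT arrays, where 1% were, shares near those of all genes. Sema7a, a membrane-anchored semaphorin of activated T cells, rose by 2.76 ± 0.29 in Rag KO (adjusted p = 0.00103) and by 1.74 ± 0.29 in WT arrays (adjusted p = 0.0140). Cd44, an adhesion receptor of activated T cells, rose by 1.39 ± 0.29 in Rag KO arrays (adjusted p = 0.0344) and had a value of 0.60 ± 0.29 in WT arrays (adjusted p = 0.340). Ampd3, an AMP deaminase, had a value of -0.83 ± 0.31 in Rag KO arrays (adjusted p = 0.223) and fell by 1.66 ± 0.31 in WT arrays (adjusted p = 0.0231). The differences between these responses were not called (adjusted p = 0.728 for each).

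**Figure D5:**
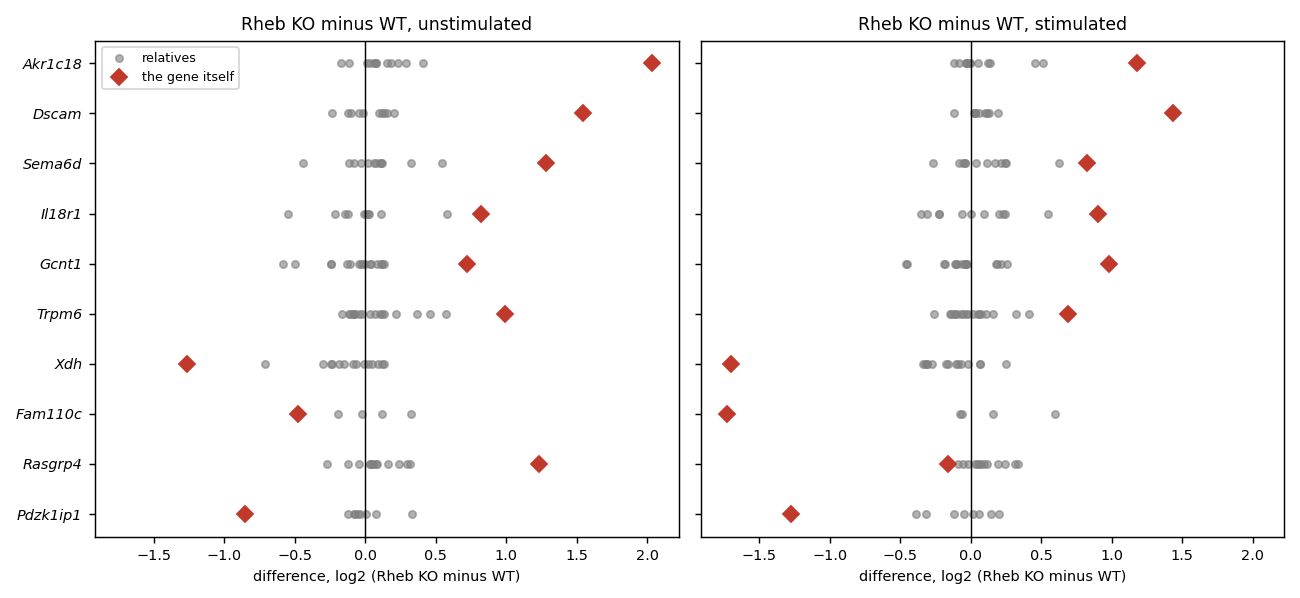
Difference between Rheb KO and WT arrays (log2) for each of the 10 genes (red diamonds) and its listed relatives (grey points), unstimulated on the left and stimulated on the right. Each row is named for the gene of the 10. The diamonds were picked for these differences, and the relatives crowd around 0 with medians of 0.02 and -0.00.

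The genes next to the 10 on their chromosomes, 40 in all, were not called in any of the 4 knockout comparisons, where 0.103% to 0.543% of all genes were called, so a count of 0 says little. Their median lay between -0.09 and 0.05. Genes of the most similar pattern were sought as those with the smallest root mean square difference over the 20 arrays, after each gene was centred within each experiment. The same measure for a gene's own deviations from its centre is given beside it. Nearest to Dscam were Itga9, an integrin chain (0.60, where Dscam itself varied by 1.23), and Ly6c2 (0.63). Nearest to Akr1c18 were Cybrd1, a ferric reductase (0.71, where Akr1c18 varied by 1.08), and Ndrg1 (0.75). Nearest to Fam110c were Castor2, a relative of the arginine sensor of human cells that acts on mTORC1 (0.34, where Fam110c varied by 0.82), and the chemokine gene Ccl20 (0.42). Castor2 differed by -0.23 unstimulated and -1.23 stimulated between Rheb KO and WT arrays, and by -0.20 and -0.12 between Rag KO and WT arrays. Nearest to Pdzk1ip1 were Tcn2 and the macrophage growth factor gene Csf1 (0.45 each, where Pdzk1ip1 varied by 0.72). Csf1 differed by -0.36 unstimulated and 1.84 stimulated between Rag KO and WT arrays. The remaining genes had nearest neighbours at 0.29 (Il18r1 and Gsap), 0.31 (Gcnt1 and Ctsh, Trpm6 and Zfp251), 0.36 (Sema6d and Icosl), 0.42 (Rasgrp4 and Klrb1f) and 0.47 (Xdh and Atp6v1d). These likenesses describe the 20 arrays and carry no test.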

How the data were processed

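Each array was hybridised with amplified, biotin-labelled cDNA from sorted Tregs. The authors' deposited values were used as log2 signals per probe set, made by RMA with Affymetrix Expression Console 1.1, per the submitters' processing notes. It is not given in the sources used here if RMA was run on both experiments at once, so each was tested by itself. Of 28846 probe sets, 19572 carried 1 gene and 5222 were negative controls. The probe set of highest mean stood for each gene, which left 19505 genes, and no filter was applied. With limma 3.58.1 (R 4.3.3), a mean for each group was fitted to the 8 arrays of the Rag and, separately, the 12 of the Rheb experiment. Errors are standard errors of the fit unless SD is named. Tests are two-sided, with Benjamini-Hochberg adjustment over all genes and calls below 0.05. Groups came from sample titles. The fits were tested on simulated data. RMA shrinks folds of dim probe sets, and 2 or 3 arrays per group limit the precision. The 10 genes, the lists and the motifs were chosen with earlier results of these data known. The text names the 10 genes, the targeted genes, called relatives and 11 fixed relatives (Il1rl1 had no named probe set), and the 2 genes of most similar pattern. Alternatives were another quantile normalization, centring on array medians, leaving out the 40% of genes of lowest mean, a variance prior with trend and robust weighting, a fit of only the compared groups or of all 20 arrays, a block for replicate number, the lowest-mean probe set, and each array left out in turn. Chosen after seeing the data were leaving out the arrays of lowest median, leaving out Rag KO arrays numbered 2, averaging the Rag KO effect over both states, and doing so with both states averaged per genotype and number before the fit.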

Additional observations from a re-analysis of the deposited data

Results flagged for a closer look

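In stimulated cells every Rag KO array of Pdzk1ip1 lay above its WT arrays, by 1.29 on average, while every Rheb KO array lay below its WT arrays, by 1.28 (a log2 difference of -1.28). The Rag KO value was not called (limma, adjusted p = 0.777), and it was 1.91 without stimulated WT array 1 and 0.66 without stimulated WT array 2. The difference between the experiments was not tested.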

How the results depend on the processing

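The 10 genes were picked for their Rheb KO differences, so that these changed sign in no alternative is no sign of stability. Counts of called genes moved with the settings, and the cause was not tested. Unstimulated, the Rag KO count of 22 was 43 after a second quantile normalization, 35 with centred arrays, 36 without the dimmest 40% of genes, 96 with a trended and robust prior, 12 with only the 2 groups compared, 210 with all 20 arrays in 1 fit, 486 without Rag KO arrays numbered 2 and 0 to 530 with 1 array left out. Stimulated, the count of 20 was, in the same order, 42, 76, 57, 106, 274, 227, 93 and 2 to 109, and 274 without the 2 arrays of lowest median. Stimulation responses gave 419 (centred), 529 (dimmest out), 553 (prior), 60 (2 groups), 2146 (all 20), 669 (without Rag KO arrays numbered 2) and 45 to 1948 (1 array out) in Rag KO, against 258. In WT they gave 638 (quantile), 522, 354, 490, 649, 1930, 649 and 13 to 600, and 565 without the arrays of lowest median, against 195. The change of the response gave 1 (dimmest out), 10 (prior), 25 (all 20), 196 (without Rag KO arrays numbered 2) and 0 to 387 (1 array out), against 0. The averaged Rag KO effect, against 64, gave 9 to 162 with 1 array out and 5 with both states averaged per genotype and number, where Akr1c18 and Dscam were no longer called (adjusted p = 0.603 and 0.502). Rheb KO counts were 200 (prior), 27 (2 groups), 28 (all 20) and 39 to 104 (1 array out) unstimulated, against 99, and 214, 59, 13 and 25 to 106 stimulated, against 106.

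Of the 10 genes, 0 to 3 were called unstimulated and 0 to 3 stimulated in Rag KO over these settings (0 to 2 and 0 to 2 with 1 array out), and 0 to 4 for the response of Rag KO and 0 to 3 for that of WT (0 to 3 and 0 to 3 with 1 array out). The change of the response gave 2 without Rag KO arrays numbered 2, and 0 to 1 with 1 array out, and the averaged effect 0 to 4. In unstimulated cells Rasgrp4 was called without Rag KO array 1 (2.04, adjusted p = 0.00800), as was Sema6d (1.60, adjusted p = 0.0399).

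Some values changed sign. Gcnt1 turned to -0.14 (quantile), -0.12 (centred) and -0.43 (arrays of lowest median out) for the WT response, to -0.070, -0.089 and -0.58 for the Rag KO response, and to 0.069, 0.034 and, without Rag KO arrays numbered 2, 0.0013 for its change. Pdzk1ip1 turned to -0.00083 (centred) and -0.62 (lowest out), and Akr1c18 to 0.26 (lowest out), for the WT response. The change of the response turned to 0.066 (centred) and 0.19 (lowest out) for Dscam and to 0.12 (lowest out) for Trpm6. Without Rag KO arrays numbered 2, the Rag KO response turned to 0.48 for Sema6d and -0.050 for Trpm6, and its change to 0.17 for Sema6d and 0.43 for Rasgrp4.

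With 1 array left out, values crossed 0 for several genes. The unstimulated Rag KO effect ranged from -1.26 to 0.084 for Il18r1, -0.76 to 0.43 for Gcnt1, -0.55 to 0.094 for Fam110c and -1.21 to 0.38 for Pdzk1ip1, and the stimulated one from -0.76 to 0.35 for Gcnt1 and -0.063 to 1.17 for Xdh. Averaged, it ranged from -0.083 to 0.75 for Il18r1 and -0.48 to 0.11 for Gcnt1. The WT response ranged from -1.10 to 0.33 for Akr1c18, -0.43 to 0.54 for Gcnt1 and -0.62 to 0.97 for Pdzk1ip1, and the Rag KO response from -1.03 to 0.49 for Sema6d and -0.58 to 0.61 for Gcnt1. The change of the response ranged from -0.56 to 0.54 for Dscam, -1.34 to 0.18 for Sema6d, -0.64 to 0.55 for Gcnt1, -0.45 to 0.068 for Trpm6 and -1.24 to 0.72 for Rasgrp4.

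The labels do not say what a replicate number stands for. Correlations of same-numbered arrays' deviations lay between -0.43 and 0.23 in the Rag experiment and between -0.20 and 0.18 in the Rheb experiment, so the numbers did not pair arrays across all groups. Across the states of 1 genotype they were 0.17 in Rag KO and 0.23 in WT arrays of the Rag experiment. Arrays of a genotype with 1 number may therefore share a source. Unstimulated Rag KO array 1 and stimulated WT array 2, of unlike number, reached 0.43, so these values do not settle it. With the replicate number as a block, Rag KO called 42 genes stimulated, the 10 genes held 1 call there (Akr1c18, 2.64, adjusted p = 0.000618) and 1 in each stimulation response, and Rheb KO called 52 genes stimulated.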
